A study of Arabidopsis thaliana with 4 samples.

Results

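A group of 5 defence genes that code for secreted or vacuolar antifungal proteins were followed across leaves of AAF-OX and wild-type Arabidopsis thaliana. They are AT4G16260 of the beta-1,3-glucanase family, the chitinase-family gene CHI (AT2G43570), the basic chitinase gene HCHIB (AT3G12500), the hevein-like gene PR4 (AT3G04720) and the osmotin gene OSM34 (AT4G11650). These 5 genes, each read from 1 probe set, were picked by name from the 22746 probe sets that are not controls, with their higher signal in AAF-OX already known, so the differences between genotypes are given for them as a description, with no test. The platform's gene table names 3 of the probe sets, those of AT4G16260, CHI and OSM34. It does not list the other 2, whose names PR4 and HCHIB come from the choice of genes itself and were not checked against the probes.

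The samples were rosette leaves of plants 3 weeks old, grown with 16 h of light and 8 h of darkness. One genotype was AAF-OX, which over-expresses AAF in the Col-0 background, and the other was Col-0, the wild type, with 2 Affymetrix arrays each. The arrays came from 2 sets run independently, and replicate number 1 or 2 is taken here as the set, so that set 1 and set 2 each hold 1 AAF-OX and 1 Col-0 array. The promoter of the transgene, the number of lines and the number of plants per sample are not given in the sources used here.

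Chitinases and beta-1,3-glucanases are enzymes that cut chitin and beta-1,3-glucan, the main polymers of fungal cell walls, and plants make them in quantity after infection. PR4 belongs to the hevein-like proteins, which bind chitin, and osmotins belong to the thaumatin-like proteins, which can permeabilise fungal membranes. PR4 and HCHIB are standard markers of the branch of defence signalling in which jasmonate and ethylene act through ERF transcription factors, as are the PDF1.2 defensins, and genes of these classes are also known to be abundant in roots and in ageing leaves.

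Signals are MAS5 intensities on a linear scale, with each array scaled to the same trimmed mean. Log2 differences were taken on signal plus a pseudocount of 50, which understates changes of dim probe sets. AAF, taken from knowledge of the study as locus AT1G66330, had signals of 7442 and 7706 in AAF-OX replicates 1 and 2, against 760 and 1337 in Col-0 replicates 1 and 2. Between 30.1% and 31.4% of the probe sets on each array had a signal under 50. Log2 signals of arrays of the same set correlated across probe sets at r = 0.985 in either set, and those of different sets at 0.950 to 0.956. The named leaf genes RCA, LHCB4.1, LHCB4.2 and PRK, of photosynthesis, were bright on every array, and their summed signal was 72099 and 101412 in AAF-OX and 83865 and 105935 in Col-0. In leaf RNA, fewer cells with a transcript and less transcript per cell cannot be told apart.

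The 3 cell-wall hydrolase genes were each higher in AAF-OX than in the Col-0 array of the same set. AT4G16260 had signals of 2239 and 210.0 in AAF-OX replicates 1 and 2, against 213 and 13.2 in Col-0 replicates 1 and 2. The AAF-OX array of set 2 was thus level with the Col-0 array of set 1, and the genotypes overlapped. HCHIB had signals of 1479 and 166 in AAF-OX, against 273 and 19.6 in Col-0. CHI had 1345 and 101 in AAF-OX, against 773 and 9.91 in Col-0. Of these 3 genes CHI had the widest gap between sets. Its Col-0 array of set 1 was 7.61 times as bright as its AAF-OX array of set 2, against 1.65 times for HCHIB.

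PR4 and OSM34 showed the same arrangement. PR4 had signals of 7865 and 2581 in AAF-OX replicates 1 and 2, against 2656 and 831 in Col-0 replicates 1 and 2. OSM34 had signals of 873 and 86.6 in AAF-OX, against 129 and 16.8 in Col-0. On the Col-0 array of set 2, only 12.8% to 17.9% of probe sets were dimmer than those of CHI, AT4G16260, OSM34 and HCHIB, while 82.1% were dimmer than that of PR4. Of the 5 genes, PR4 alone lay above the array's median signal on all 4 arrays.

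**Figure D1:**
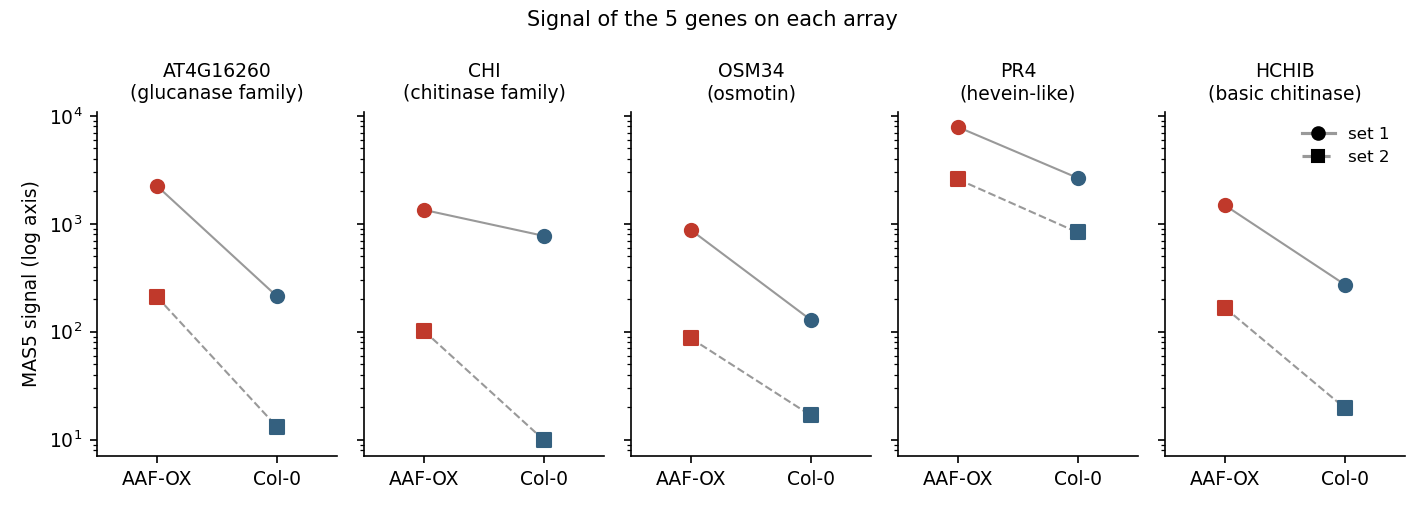
MAS5 signal (log axis) of the 5 genes on each of the 4 arrays, AAF-OX in red and Col-0 in blue, with circles for set 1 and squares for set 2 and a line joining the arrays of 1 set. In every panel the order from high to low is AAF-OX of set 1, Col-0 of set 1, AAF-OX of set 2 and Col-0 of set 2, and levels are not comparable between panels.

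The order of the arrays was the same for all 5 genes. From high to low it was AAF-OX of set 1, Col-0 of set 1, AAF-OX of set 2 and Col-0 of set 2, an order also found in 1383 of the 13592 probe sets tested (10.2%). The middle neighbours in this order were close for AT4G16260 and PR4, whose Col-0 signal in set 1 was 1.02 and 1.03 times the AAF-OX signal in set 2. They were further apart for OSM34 (1.48 times) and HCHIB (1.65 times). In 0 of the 5 genes did both AAF-OX arrays lie above both Col-0 arrays, an arrangement that 7.86% of all tested probe sets showed.

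Because the sets lay so far apart, the arrays of a group spread widely around their mean. AT4G16260 averaged 1225 ± 1435 in AAF-OX and 113 ± 142 in Col-0 (SD, n = 2 each). HCHIB averaged 823 ± 929 in AAF-OX and 146 ± 179 in Col-0, and OSM34 averaged 479.8 ± 556 in AAF-OX and 72.7 ± 79.1 in Col-0. For CHI the means were 723 ± 879 in AAF-OX and 391 ± 539 in Col-0, and for PR4 they were 5223 ± 3737 in AAF-OX and 1743 ± 1291 in Col-0. Each of these differences in mean signal was smaller than the SD of the AAF-OX arrays, which takes in the difference between sets.

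On the log2 scale the difference of AAF-OX from Col-0, averaged over the sets, was 2.58 for AT4G16260, 1.94 for HCHIB, 1.70 for OSM34, 1.56 for PR4 and 1.05 for CHI. Among the 13592 tested probe sets these ranked 5, 10, 13, 15 and 32 from the highest, and the median of all tested probe sets was -0.02. The standard errors with genotype alone in the model were 0.78 for PR4, 1.05 for OSM34, 1.21 for HCHIB, 1.26 for AT4G16260 and 1.66 for CHI. With the set as a block they were 0.11 for PR4, 0.18 for CHI, 0.18 for HCHIB, 0.22 for AT4G16260 and 0.27 for OSM34. With genotype alone, limma called 0 of the 13592 probe sets at an adjusted p under 0.05 (0%), the 5 genes included, and 117 had an unadjusted p under 0.05. With the block it called 210 of them, and all 5 genes were among the 182 called higher (1.34%). Since the genes were picked from this comparison, nothing is read from that count.

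How alike the sets were in this difference varied from gene to gene. PR4 was nearly the same in the sets, with a log2 difference of 1.55 in set 1 and 1.58 in set 2, and its AAF-OX signal was 2.96 times that of Col-0 in set 1 and 3.11 times in set 2. OSM34 had a log2 difference of 2.37 in set 1 and 1.03 in set 2, and plain signal ratios of 6.79 and 5.17. CHI ran the other way, with log2 differences of 0.76 in set 1 and 1.34 in set 2, and plain ratios of 1.74 and 10.2. With 1 array per genotype in a set, whether the sets differ in this respect could not be tested.

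For AT4G16260 and HCHIB, the set with the larger difference depended on the pseudocount. AT4G16260 was 10.5 times as bright in AAF-OX as in Col-0 in set 1 and 15.9 times in set 2, but its log2 differences on signal plus 50 were 3.12 in set 1 and 2.04 in set 2. HCHIB had plain ratios of 5.41 in set 1 and 8.47 in set 2, and log2 differences of 2.24 and 1.63. With a pseudocount of 1 the larger difference was in set 2 for both, at 3.89 against 3.39 in set 1 for AT4G16260 and at 3.02 against 2.43 in set 1 for HCHIB. The dim Col-0 signals of set 2, between 9.91 and 19.6 for 4 of the genes, lie below the pseudocount of 50, and detection calls were not analysed here. All 5 genes were higher in AAF-OX in both sets, as were 24.4% of all tested probe sets, and a pseudocount cannot change this direction.

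**Figure D2:**
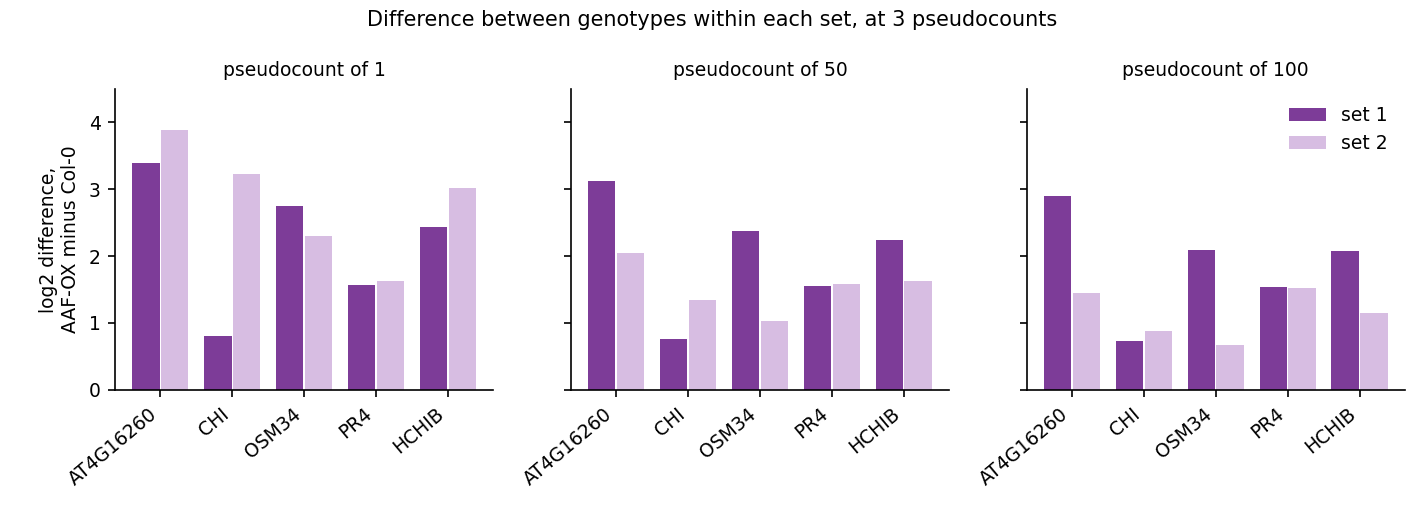
Log2 difference of AAF-OX minus Col-0 within set 1 (dark bars) and set 2 (light bars) for the 5 genes, at pseudocounts of 1, 50 and 100. PR4 keeps nearly the same height in all panels (1.53 to 1.63), while for AT4G16260 and HCHIB the taller bar passes from set 2 at a pseudocount of 1 to set 1 at 50 and 100.

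Set 2 was lower than set 1 in both genotypes for all 5 genes. The log2 difference of set 2 minus set 1, averaged over the genotypes, was -3.49 ± 0.44 for CHI, -2.60 ± 1.02 for AT4G16260, -2.52 ± 0.77 for HCHIB, -2.09 ± 0.72 for OSM34 and -1.60 ± 0.61 for PR4 (SE with set alone in the model). With set alone, the standard error takes in the difference between genotypes. With both terms in the model, the set and genotype differences of a gene have the same standard error. It was 0.18 for CHI, 0.18 for HCHIB, 0.22 for AT4G16260, 0.27 for OSM34 and 0.11 for PR4. The set difference was the larger in size by more than this for CHI, HCHIB and OSM34, and by less for AT4G16260 and PR4. Which of the differences was the larger changed with the scaling for AT4G16260, at 2.59 between genotypes and -2.54 between sets after median centring, and for PR4, at 1.58 and -1.55. After quantile normalization it changed for AT4G16260 only (2.62 and -2.55). Within AAF-OX the sets differed by -3.20 for CHI, -3.14 for AT4G16260, -2.82 for HCHIB, -2.76 for OSM34 and -1.59 for PR4. Within Col-0 they differed by -3.78 for CHI, -2.22 for HCHIB, -2.06 for AT4G16260, -1.62 for PR4 and -1.42 for OSM34. With 1 array left out, the genotypes are no longer balanced and the difference between them enters the average set difference. For AT4G16260 this average then moved to -4.16 without Col-0 replicate 1 and to -1.04 when AAF-OX replicate 1 was dropped. By the same omissions HCHIB ran from -3.64 to -1.40 and OSM34 from -3.27 to -0.90. PR4 ran from -2.39 without AAF-OX replicate 2 to -0.81 without Col-0 replicate 2, and CHI from -4.16 to -2.82 by those omissions.

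Set 1 and set 2 did not overlap in any of the 5 genes, as in 38.7% of all tested probe sets with set 1 above set 2. With set alone in the model, 2 of the 5 (CHI and HCHIB) were among the 2255 probe sets called lower in set 2 (16.6%, with 29.4% called in either direction), and with genotype as a further term all 5 were among 2996 (22%). The set differences of CHI and AT4G16260 were known when the genes were picked, so these counts too are a description. What differed between the sets besides the run is not given in the sources used here.

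**Figure D3:**
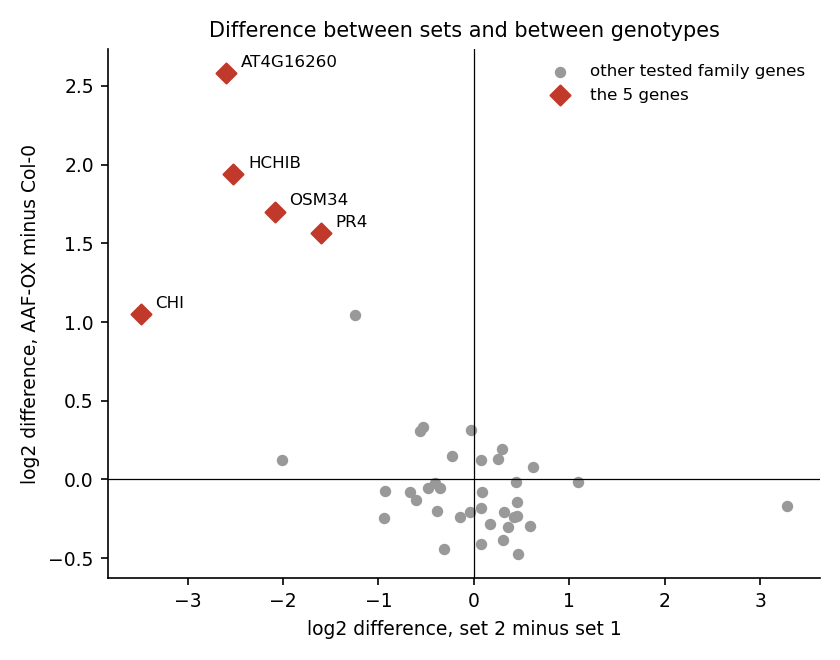
Log2 difference of set 2 minus set 1 (horizontal axis) against that of AAF-OX minus Col-0 (vertical axis), on signal plus 50, for the 5 genes (red diamonds) and the 36 other tested genes of their families (grey). The 5 genes lie at the upper left, with set differences of -3.49 to -1.60 and genotype differences of 1.05 to 2.58.

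The profiles of the 5 genes over the 4 arrays were compared by the root mean square difference of centred log2 values. It was smallest between OSM34 and HCHIB (0.31) and between AT4G16260 and HCHIB (0.34), followed by OSM34 and PR4 (0.42), AT4G16260 and OSM34 (0.51) and PR4 and HCHIB (0.52). AT4G16260 and PR4 were further apart (0.76), within the range of CHI against the other genes (0.72 to 0.99). Likeness was also measured against 7300 other tested probe sets with 1 named gene. For AT4G16260 the nearest were PDF1.2 (0.36), PDF1.2b (0.64), both antifungal defensins, and AT3G23550, of the MATE efflux transporters (0.71). AT3G23550 was also the nearest to PR4 (0.14), OSM34 (0.37) and HCHIB (0.52). Its signals were 1620 and 459 in AAF-OX, against 394 and 127 in Col-0. Next to PR4 came AT1G10340 (0.25) and AT1G02470 (0.29). Next to OSM34 came SUFE2, of plastid iron-sulfur cluster assembly (0.45), and AT5G39520 (0.47), and next to HCHIB came SUFE2 (0.54) and SAL2 (0.61).

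The nearest to CHI were AT1G43910 (0.60), AT5G59670 (0.61) and SAL2 (0.65), the last of which was also listed for HCHIB. AT1G43910 and AT5G59670 differed strongly between sets (-2.58 and -2.91) and hardly between genotypes (0.27 and 0.04). SAL2 differed in both ways, by -2.27 between sets and by 0.78 between genotypes. With only 4 arrays and the set difference in every profile, such likeness is a description of these arrays.

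No other tested gene of the same families passed the test between genotypes. The lists for chitinases, beta-1,3-glucanases and thaumatin-like proteins hold 92 genes beside the members, of which 36 were named and bright enough to test, 34 were dimmer than a mean signal of 100 and 22 had no named probe set. With the set as a block, limma called 0 of the 36 higher and 0 lower, where 1.34% and 0.206% of all tested probe sets were called higher and lower. At an unadjusted p under 0.05 there were 4 of the 36 with the block, 1 higher and 3 lower, beside 11.0% of all tested probe sets, and 0 with genotype alone. Their median log2 difference was -0.10, beside -0.02 for all tested probe sets. Of the 36, 6 were higher in AAF-OX in both sets, 17 were lower in both and 13 moved in opposite directions, where the shares over all tested probe sets were 24.4%, 31.3% and 44.3%.

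**Figure D4:**
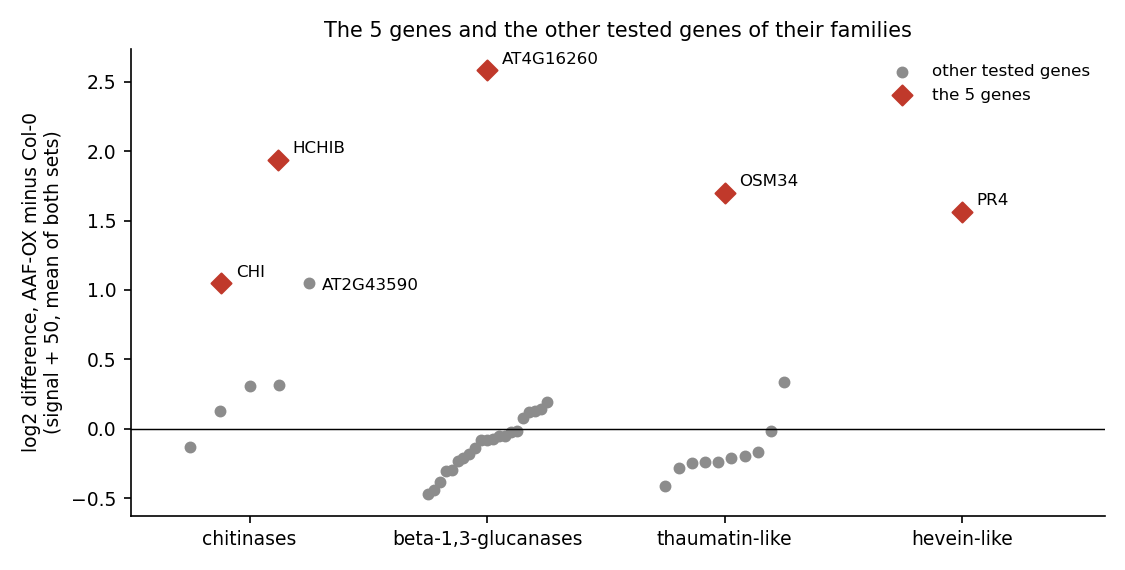
Log2 difference of AAF-OX minus Col-0 (signal plus 50, mean of the sets) for the 5 genes (red diamonds) and the other tested genes of their families (grey points, ordered by value within a family). Apart from AT2G43590 at 1.05, the grey points lie between -0.47 and 0.33.

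Among chitinases, 5 of 21 other genes were tested, with a median of 0.31 and none past the threshold. The one with the largest difference was AT2G43590, which lies 2 genes from CHI in a run of 6 chitinase genes on chromosome 2. AT2G43590 had signals of 1401 and 167 in AAF-OX, against 200.1 and 245 in Col-0. It was thus far higher in AAF-OX in set 1 (log2 2.54) and lower in set 2 (-0.44), unlike CHI, and its mean difference of 1.05 ± 0.46 had an adjusted p of 0.418 (limma with the block). The other 4 genes of the run were too dim to test. AT2G43620 missed the filter narrowly, with a mean of 99.5 and signals of 132 and 35.6 in AAF-OX, against 191 and 40.1 in Col-0. The remaining 3, AT2G43580, AT2G43600 and AT2G43610, had signals of 1.73 to 56.8. AT1G02360, the next chitinase gene by p, had 0.31 ± 0.16 (limma's adjusted p = 0.538 with the block).

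Of 49 other beta-1,3-glucanase genes, 21 were tested, and their log2 differences ran from -0.47 to 0.20 with a median of -0.08. The smallest p values were those of AT4G29360 (-0.44 ± 0.17, limma's adjusted p = 0.336 with the block) and AT1G32860 (-0.47 ± 0.20, limma's adjusted p = 0.391 with the block). The signals of AT1G32860 were 80.7 and 160 in AAF-OX, against 161 and 199.8 in Col-0. Of 22 other thaumatin-like genes, 10 were tested, with a range of -0.41 to 0.33 and a median of -0.22. AT1G75800 and AT5G24620 had -0.24 ± 0.11 and -0.28 ± 0.13 (limma's adjusted p = 0.415 and 0.491 with the block).

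Between sets, limma with set alone in the model called 11 of the 36 genes (30.6%), 7 lower and 4 higher in set 2. This is near the share over all tested probe sets, of which 29.4% were called, 16.6% lower and 12.8% higher. Picked after their values were seen, the chitinase gene AT4G01700 had signals of 118 in AAF-OX and 87.4 in Col-0 in set 2, against 554 and 569 in set 1 (log2 -2.01 ± 0.16, limma's adjusted p = 0.000514). In contrast, the thaumatin-like gene AT1G20030 had 846 in AAF-OX and 874 in Col-0 in set 2, against 34.2 and 53.1 in set 1 (log2 3.29 ± 0.16, limma's adjusted p = 0.00016). AT4G01700 shared the set difference of the 5 genes, and its difference between genotypes was 0.13 ± 0.16 (limma's adjusted p = 0.877 with the block).

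Of the defensin list, 3 of 6 genes were tested, and PDF1.2 and PDF1.2b were called with the block. PDF1.2 had signals of 16932 and 1660 in AAF-OX, against 1204 and 200.5 in Col-0, and PDF1.2b had 12046 and 1849 in AAF-OX, against 1339 and 90.6 in Col-0. Both thus followed the array order of the 5 genes except that AAF-OX of set 2 lay above Col-0 of set 1. Their log2 differences were 3.27 ± 0.18 and 3.44 ± 0.15, and both genes were known to differ when the lists were written. The probe set of PDF1.2b is of a type that can also bind transcripts of related genes. The third, PDF1.4, had 0.03.

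Most regulators of this defence branch could not be read. Of 22 genes on the ethylene and ERF list, only EIN3, a transcription factor of ethylene signalling, had a named probe set, with a log2 difference of -0.03 ± 0.12 (limma's adjusted p = 0.980 with the block). Of 8 salicylic acid genes only the glutaredoxin gene GRX480 was tested, with 0.16 ± 0.20 between genotypes (limma's adjusted p = 0.870 with the block). GRX480 was much lower in set 2, at 78.4 in AAF-OX and 45.7 in Col-0, against 319 and 348 in set 1 (log2 -1.79 ± 0.20, limma's adjusted p = 0.00161 with set alone). Of 16 leaf senescence genes 5 were tested, with a median of 0.21 and none past the threshold. WRKY53, a transcription factor of early senescence, had 0.37 ± 0.15 (limma's adjusted p = 0.366 with the block), and NOL, of chlorophyll breakdown, had 0.22 ± 0.13 (limma's adjusted p = 0.606). Between sets, limma with set alone called 3 of these 5 genes, WRKY53 and WRKY22 higher in set 2 (1.07 ± 0.22 and 0.91 ± 0.23, adjusted p = 0.0123 and 0.0285) and WRKY6 lower (-0.83 ± 0.21, adjusted p = 0.0257). Over all tested probe sets the same fit called 29.4%, 12.8% higher and 16.6% lower in set 2, and with 5 genes nothing is read from the count.

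Genes of other organs were examined because members of these classes are abundant in roots. Of 8 root genes, PYK10 and NAI2, of endoplasmic reticulum bodies, were named and tested, and of 4 flower genes none was named. PYK10 had signals of 629 and 1527 in AAF-OX, against 1075 and 1974 in Col-0, and NAI2 had 210.5 and 192 in AAF-OX, against 340 and 312 in Col-0. Both root genes lay lower in AAF-OX in each set (mean log2 -0.54 ± 0.13 and -0.58 ± 0.16, limma's adjusted p = 0.0679 and 0.108 with the block). The other 6 root genes had no named probe set, and whether the samples held root tissue was not tested. PYK10 was also higher in set 2 than in set 1 (log2 1.03 ± 0.25), and NAI2 had -0.11 ± 0.26. The 4 leaf genes had log2 differences between -0.20 and -0.09, with limma's adjusted p = 0.421 for LHCB4.1 and 0.566 for LHCB4.2 with the block.

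None of the nearest tested genes along the chromosomes, which lay 1 to 20 genes from their member, was called between genotypes. The 3 nearest named and tested genes on each side of each member, 30 in all, had a median log2 difference of -0.02 and a range of -0.38 to 1.05, whose upper end is AT2G43590. With the block, limma called 0 of these 30, where 1.55% of all tested probe sets were called in either direction. The 5 genes lie at separate places on chromosomes 2, 3 and 4 in the TAIR10.1 gene table.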

How the data were processed

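Leaf RNA carrying a biotin label was measured on Affymetrix arrays, per the labels' protocols. The authors deposited linear intensity values (MAS5 signals), per the submitters' processing notes; the MAS5 version is not given in the sources used here. Each array had a 2%-trimmed mean of 500.04 to 500.05. The number of arrays, 2 per genotype, limits the precision.

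Of 22810 probe sets, 64 controls were left out, and the 13592 with a mean signal of at least 100 over the 4 arrays were tested (9154 left out). Tests used log2(signal + 50) in limma 3.58.1 (R 4.3.3), with lmFit, then eBayes with trended variance. They were two-sided, with Benjamini-Hochberg adjustment across every tested probe set and a threshold of 0.05. The model for AAF-OX against Col-0 has genotype alone, and a paired version has the replicate number as a further term (the block). Pairing rests on the series' statement of 2 independent sets, and the deviations of same-numbered arrays from their group means correlated at 0.856. Nothing says that the plants were grown separately, and p-values then measure only the spread between these arrays. With the block 1 residual degree of freedom is left, and most of the error estimate comes from other probe sets. The set comparison has set alone. The fits were tested on simulated data.

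Of the probe sets, 13513 had 1 gene in the platform's table, and 13436 of those matched a TAIR10.1 locus. No coordinates are given, since no build is named for the probes. The members, the 10 gene lists and the tests were chosen with earlier results of these data known. Named genes were the 5 members, AAF, up to 4 genes per list past the threshold in the blocked fit or else the 2 with the smallest p, and the 3 nearest named profiles of each member. A gene with several probe sets was read from the brightest. The alternatives were a pseudocount of 1 or 100, a filter at a mean of 200 or none at all, quantile normalization, centring on medians, an untrended variance, the block (alone and with each of these) and leaving out each array.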

Additional observations from a re-analysis of the deposited data

Results flagged for a closer look

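Among the 21 members and list genes named, 3 moved in opposite directions in the sets, beside 44.3% of all tested probe sets. These shares are not comparable. The members were picked for their higher signal in AAF-OX and most list genes by the blocked fit, which favours the same direction in both sets. Of the 36 other tested family genes, 13 moved in opposite directions. Whether the sets differ in the direction of a gene could not be tested with 1 array per genotype in a set. AT2G43590, a chitinase gene 2 genes from CHI, had a log2 difference of AAF-OX minus Col-0 of 2.54 in set 1 and -0.44 in set 2, a change of -2.98. The single AAF-OX array of set 1, at 1401, set this value apart from the other signals of 167 to 245. EIN3 had 0.15 in set 1 and -0.21 in set 2 (-0.36), and GRX480 had -0.11 in set 1 and 0.42 in set 2 (0.53). The 5 members, picked with their higher signal in AAF-OX known, moved the same way in both sets.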

How the results depend on the processing

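The replicate block took the called probe sets for AAF-OX against Col-0 to 210, against 0 with genotype alone (limma), and the called list genes to 2, against 0. Without the block, all planned settings and each array left out gave 0 and 0. With the block, the count was 76 with a pseudocount of 1, 276 with 100, 18 without the filter, 213 with the filter at 200, 292 with quantile normalization, 137 with median centring and 21 without the intensity trend. The list genes called were 2 in each of these, PDF1.2 and PDF1.2b, except for 3 with a pseudocount of 100 and with quantile normalization, where PYK10 was added as lower. Of the members, picked for this difference, the calls lost with the block were those of CHI with a pseudocount of 1 (0.464% of probe sets called higher), and of CHI and OSM34 without the filter (0.0659%) or the intensity trend (0.14%). With an array left out, the sets are no longer balanced and the difference between them enters the genotype value. The log2 difference of CHI then ran from -0.84 without Col-0 replicate 2 to 2.94 without Col-0 replicate 1, and it was -0.55 without AAF-OX replicate 1. The other 4 stayed positive, at 0.32 (OSM34 without AAF-OX replicate 1) to 4.15 (AT4G16260 without AAF-OX replicate 2). For the sets, 3996 probe sets became 2331 to 3822 with 1 array left out, where the lowest count was that without AAF-OX replicate 1, followed by 2473 where Col-0 replicate 1 was omitted. The 19 called list genes became 8 to 21, with 8 again without AAF-OX replicate 1, 12 without the filter and 29 with genotype as a term. The set difference of CHI was -4.93 with a pseudocount of 1. The cause of these changes was not tested. Dim signals limit what can be said of all members but PR4.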
